A study of Homo sapiens with 15 samples.

Results

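The genes described here are 41 lysosome and autophagy genes, measured as messenger RNA in 5 human cell lines. They were taken from a count table by looking up a list of 41 gene symbols. All 41 were found among 15510 gene rows, and all 41 were among the 13599 rows that passed a filter on low counts. They code for lysosomal membrane glycoproteins, proteases, glycan and lipid hydrolases, transporters, subunits of the proton pump, transcription factors of the MiT family and autophagy proteins, with GPNMB, a glycoprotein of pigment cells, beside them. The parent line, ARPE19, is an established cell line from human retinal pigment epithelium, and 4 lines were derived from it, with 3 libraries for every line. RasV12 cells carry hTERT with p53DD (a dominant negative p53 fragment), cyclin D1 with CDK4R24C and, on top of these, H-RasV12, per the labels. MekDD cells carry the same first 4 genes plus MEK-DD, an active MEK, and AKTmyr cells carry them plus a myristoylated, membrane-bound Akt. T53D4 is labelled as the line with hTERT, p53DD, cyclin D1 and CDK4R24C alone, and ARPE19 was not transfected. The labels call RasV12 and AKTmyr transformed, MekDD weakly transformed, and T53D4 and ARPE19 not transformed. There is 1 transfected line per construct, and a fresh vial was thawed for every library and its cells passaged 2 times. The p-values therefore cover the spread between vials and preparations, not between independently made lines.

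Lysosomes break down proteins, glycans and lipids with hydrolases that work in acid, and the vacuolar H+-ATPase (V-ATPase) pumps in the protons. Autophagy encloses cytoplasm in a double membrane that fuses with the lysosome. TFEB and TFE3 are transcription factors that switch on many lysosomal genes through short E-box sequences near their start sites. The kinase mTORC1, which AKT activates, phosphorylates both factors and keeps them in the cytoplasm. In the eye, the pigment epithelium relies on lysosomes to digest the tips of photoreceptors that it engulfs. Protein amount, phosphorylation and enzyme activity were not measured in these libraries.

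Libraries held 20.63 to 46.55 M reads on genes. HRASV12, MEKDD and AKT construct reads were each highest in the line labelled with them (310.4 ± 30.4 CPM in RasV12, 753 ± 229 CPM in MekDD and 839.6 ± 334 CPM in AKTmyr, SD, n = 3; CPM are counts scaled to a common library size). The cyclin D1 and CDK4R24C construct reads of the libraries labelled T53D4, 146 ± 32.1 and 92.2 ± 11.8 CPM, were near those of untransfected ARPE19, 193 ± 41.6 and 70.7 ± 12 CPM. RasV12 libraries held 2350 ± 121 and 2380 ± 23.3 CPM of these constructs, and MekDD libraries 269.5 ± 57.6 and 142 ± 13.7 CPM. The hTERT and p53DD construct reads were present in T53D4, at 879 ± 147 and 70.7 ± 20.1 CPM. In ARPE19 they were nearly absent, at 0.176 ± 0.0538 and 0.00977 ± 0.0169 CPM. The labels of T53D4 and MekDD are thus contradicted for cyclin D1 and CDK4R24C, but that of T53D4 is not for hTERT and p53DD. Calls on the lysosome and autophagy genes above, against the libraries labelled T53D4 (T53D4 for short), are therefore also given with ARPE19 in their place. This alternative was added after the data were seen. Results against T53D4 for MITF and for further genes counted from lists of the pathway are given without it. The pigment epithelial identity of all 5 lines was partial. OTX2, a factor that specifies this epithelium, stood at 44.2 to 110 CPM, and the epithelial keratin KRT8 at 579 to 1740 CPM, but RPE65, the visual cycle enzyme, had 17 reads over the 15 libraries.

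Levels between genes were compared per length, as the mean CPM per kilobase of exon over the 15 libraries. PSAP, the precursor of the saposins that help sphingolipid hydrolases, was the most abundant at 848 CPM per kb. CD63, a tetraspanin of late endosomes, followed at 374 CPM per kb and the aspartic protease CTSD at 305 CPM per kb. The least abundant were UVRAG, an autophagy and endosome regulator, at 2.38 CPM per kb, the sulfamidase SGSH at 2.08 CPM per kb, TFEB at 1.88 CPM per kb and CLN3 at 0.0271 CPM per kb. TFE3, at 34.3 CPM per kb, was far above its relative TFEB on this scale. CLN3, a lysosomal membrane protein lost in a childhood storage disease, had only 3 to 14 reads per library and 131 in all. In the annotation the authors deposited, 2480 exon bases of CLN3 also belong to another gene on the same strand, AC138894.1, so its low count is uncertain and it is not drawn in the plots.

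**Figure D1:**
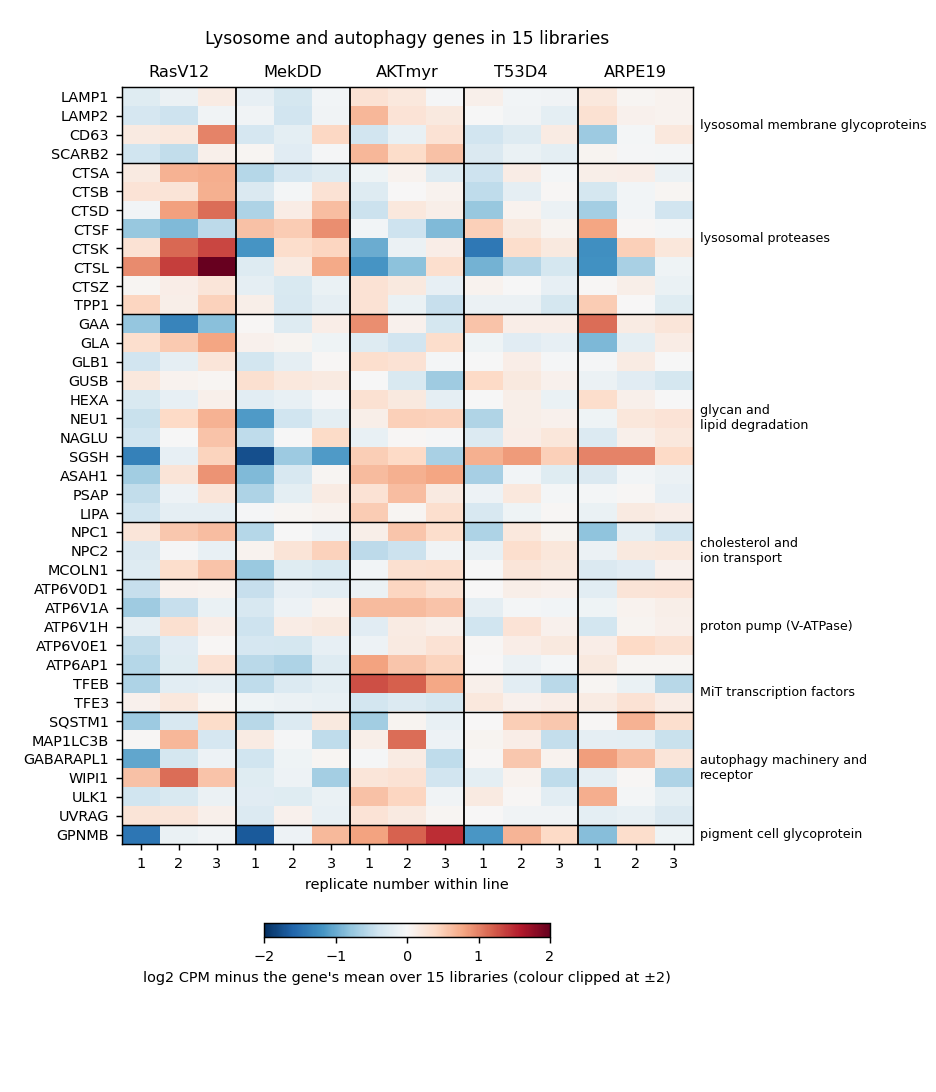
Level of 40 of the 41 genes (CLN3 left out) in each of the 15 libraries, as log2 CPM minus the gene's mean over all libraries; columns are replicates 1, 2 and 3 of RasV12, MekDD, AKTmyr, T53D4 and ARPE19, and rows are grouped by role. TFEB, ATP6V1A and SCARB2 are above their means in the 3 AKTmyr libraries, CTSL and WIPI1 in the 3 RasV12 libraries, and replicate 1 is the darkest blue of the 3 for GPNMB in RasV12, MekDD, T53D4 and ARPE19.

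In AKTmyr cells the transcription factor TFEB, 2 parts of the proton pump and several lysosomal membrane and lipid-degrading genes were higher than in T53D4, while TFE3 was lower. Of the 41 genes, 7 were called higher and 2 lower (edgeR quasi-likelihood test with Benjamini-Hochberg adjusted p under 0.05). Over all 13599 genes tested, 9.91% were called higher and 10.2% lower. The count of 7 depended on single libraries, while TFEB, ATP6V1A and SCARB2 were called higher with each library left out in turn. Without AKTmyr replicate 1, 3 members were higher and 3 lower, where 5.98% and 5.79% of all genes were called, and without T53D4 replicate 2, 3 were higher and 2 lower, where 6.68% and 7.39% were called. Leaving out T53D4 replicate 1 or 3 gave 4 higher, where 1975 and 1802 of all genes were called, against 2738 with every library. With ARPE19 in place of T53D4, 5 were higher and 1 lower, where 7.98% and 8.86% of all genes were called. NPC1 and UVRAG, not called against T53D4, were among these 5. By sign, 32 of the 41 genes had a positive fold change and 9 a negative one. The median log2 fold change of the 41 was 0.15, against -0.01 over all genes.

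Within the MiT family the 2 members moved in opposite directions in AKTmyr. TFEB (chromosome 6, 41683978 to 41736259, minus strand, hg38) had 23.6, 22.0 and 16.5 CPM in AKTmyr (replicates 1, 2 and 3), against 10.3, 8.37 and 6.62 CPM in T53D4. Every AKTmyr library was above every T53D4 library, by log2 1.29 (SE 0.21, edgeR adjusted p = 0.0012). TFEB stayed at 6.31 to 8.56 CPM in RasV12, 6.79 to 8.41 CPM in MekDD and 6.58 to 9.90 CPM in ARPE19, so the 3 AKTmyr libraries were above all 12 others. TFE3 had 110, 118 and 112 CPM in AKTmyr against 166, 151 and 157 CPM in T53D4. It was lower by a smaller but tight margin, log2 -0.48 (SE 0.09, edgeR adjusted p = 0.00339). MITF, the pigment cell member of the family, had 90.8 ± 20.4 CPM in AKTmyr and 92.5 ± 22.9 CPM in T53D4 and was not called.

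The proton pump genes were ATP6V1A, the catalytic subunit A of the cytosolic ring, ATP6AP1, an accessory subunit, and ATP6V0D1, ATP6V0E1 and ATP6V1H. ATP6V1A had 128, 128 and 122 CPM in AKTmyr against 72.8, 80.2 and 80.0 CPM in T53D4, with no overlap (log2 0.70, SE 0.14, edgeR adjusted p = 0.00431). ATP6AP1 had 208, 175 and 161 CPM in AKTmyr against 120, 109 and 115 CPM in T53D4 (log2 0.66, SE 0.18, edgeR adjusted p = 0.0212). The other 3 did not pass the test. Among 12 further V-ATPase subunits 0 were called in this comparison, where 9.91% of all genes were higher and 10.2% lower (edgeR). With the replicate number in the model 1 was higher and 1 lower, where 16.9% and 17.9% of all genes were called.

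Lysosomal membrane glycoproteins line the organelle and protect it from its own enzymes. SCARB2, the receptor that carries glucocerebrosidase to lysosomes, had 650, 531 and 617 CPM in AKTmyr against 338, 376 and 358 CPM in T53D4 (log2 0.75, SE 0.15, edgeR adjusted p = 0.00471). LAMP2, needed for the fusion of autophagosomes with lysosomes, had 402, 307 and 291 CPM in AKTmyr against 254, 242 and 221 CPM in T53D4 (log2 0.48, SE 0.15, edgeR adjusted p = 0.0372). LAMP1 did not pass, at 454, 429 and 366 CPM in AKTmyr and 400, 359 and 353 CPM in T53D4 (log2 0.17, SE 0.13, edgeR adjusted p = 0.405). Their ranges overlapped.

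Among the hydrolase genes of glycan and lipid breakdown, 2 were higher and 1 lower in AKTmyr. ASAH1, the acid ceramidase, had 111, 117 and 125 CPM in AKTmyr against 45.2, 69.0 and 60.4 CPM in T53D4 (log2 1.02, SE 0.31, edgeR adjusted p = 0.0349). LIPA, the lysosomal acid lipase, had 124, 89.0 and 109 CPM in AKTmyr against 69.3, 81.8 and 87.9 CPM in T53D4 (log2 0.43, SE 0.14, edgeR adjusted p = 0.0394), with ranges that nearly touched. GUSB, beta-glucuronidase, was lower, with 128, 104 and 78.4 CPM in AKTmyr against 169, 147 and 137 CPM in T53D4 (log2 -0.55, SE 0.15, edgeR adjusted p = 0.0226). None of the 8 protease genes was called, CTSD among them (log2 0.22, SE 0.34, edgeR adjusted p = 0.684), and by DESeq2 1 of them, CTSF, was lower (log2 -0.64, adjusted p = 0.0485). SQSTM1, the autophagy receptor p62, had 324, 545 and 475 CPM in AKTmyr against 527, 737 and 760 CPM in T53D4 and was not called (log2 -0.59, SE 0.29, edgeR adjusted p = 0.17). Its exons share 1687 bases with MGAT4B and MRNIP on the other strand, and MGAT4B had 252 CPM in RasV12, 292 CPM in MekDD and 283 CPM in AKTmyr, against 389 CPM in T53D4. The part of these reads in the SQSTM1 values was not tested. GPNMB had 817, 1051 and 1291 CPM in AKTmyr against 207, 748 and 616 CPM in T53D4, with no overlap but no call (log2 1.01, SE 0.56, edgeR adjusted p = 0.218).

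The calls of TFEB, ATP6V1A, SCARB2 and TFE3 also held with ARPE19 in place of T53D4, and those of LAMP2, ASAH1, LIPA, ATP6AP1 and GUSB did not (edgeR adjusted p 0.067 to 0.765). GUSB differed little from ARPE19 (log2 -0.08), where it had 119, 109 and 101 CPM. These 5 calls were also lost when single libraries were left out. LAMP2 was lost without AKTmyr replicate 1 or any T53D4 library (log2 0.34 to 0.53), ASAH1 without any 1 of the 6 libraries (log2 0.87 to 1.16), and LIPA without AKTmyr replicate 1 or 3 or T53D4 replicate 1 or 2 (log2 0.33 to 0.45). ATP6AP1 was lost without AKTmyr replicate 1 or T53D4 replicate 2 or 3 (log2 0.56 to 0.66), and GUSB without AKTmyr replicate 2 or 3 or T53D4 replicate 1 (log2 -0.55 to -0.38). From replicates 2 and 3 alone, SCARB2 and TFE3 just missed the threshold (edgeR adjusted p = 0.0558 and 0.0512). With the replicate number as a block, 10 members were higher and 5 lower, where 16.9% and 17.9% of all genes were called, and GPNMB was among the 10 (log2 1.21, edgeR adjusted p = 0.00692).

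Beyond the 41, other lysosomal genes were counted from lists of the pathway, where 9.91% of all genes tested were higher and 10.2% lower in AKTmyr than in T53D4. Of 34 other lysosomal hydrolases measured, 7 were higher and 2 lower in AKTmyr than in T53D4, with a median log2 fold change of 0.38 against -0.01 over all genes. The most changed were HYAL1, a hyaluronidase, at 59.4 ± 24.8 CPM in AKTmyr and 9.20 ± 1.58 CPM in T53D4 (log2 2.69, edgeR adjusted p = 7.8e-05), and the carboxypeptidase CPVL, at 2.99 ± 1.33 CPM in AKTmyr and 14.8 ± 7.14 CPM in T53D4 (log2 -2.33, edgeR adjusted p = 0.00404). GM2A, the activator that presents ganglioside GM2 to its hydrolase, was higher by log2 0.92 (edgeR adjusted p = 0.0374). Of 20 other lysosomal membrane proteins, 4 were higher and 0 lower, among them the transporter ABCA2 (log2 1.31), OSTM1, the partner of a chloride transporter (log2 0.79), and the sialic acid exporter SLC17A5 (log2 0.67). Of 35 other autophagy genes, 2 were higher and 3 lower, ATG4A (log2 0.94), WDR45 (log2 -0.78) and WIPI2 (log2 -0.43) being the most changed. Of 21 mTORC1 and nutrient-sensing genes, 1 was higher and 2 lower, namely RRAGA (log2 0.35), NPRL3 (log2 -0.43) and LAMTOR1 (log2 -0.31). Of 9 genes that sort hydrolases to lysosomes, 0 were called by edgeR. With the replicate block 0 of them were higher and 2 lower, where 16.9% and 17.9% of all genes were called.

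**Figure D2:**
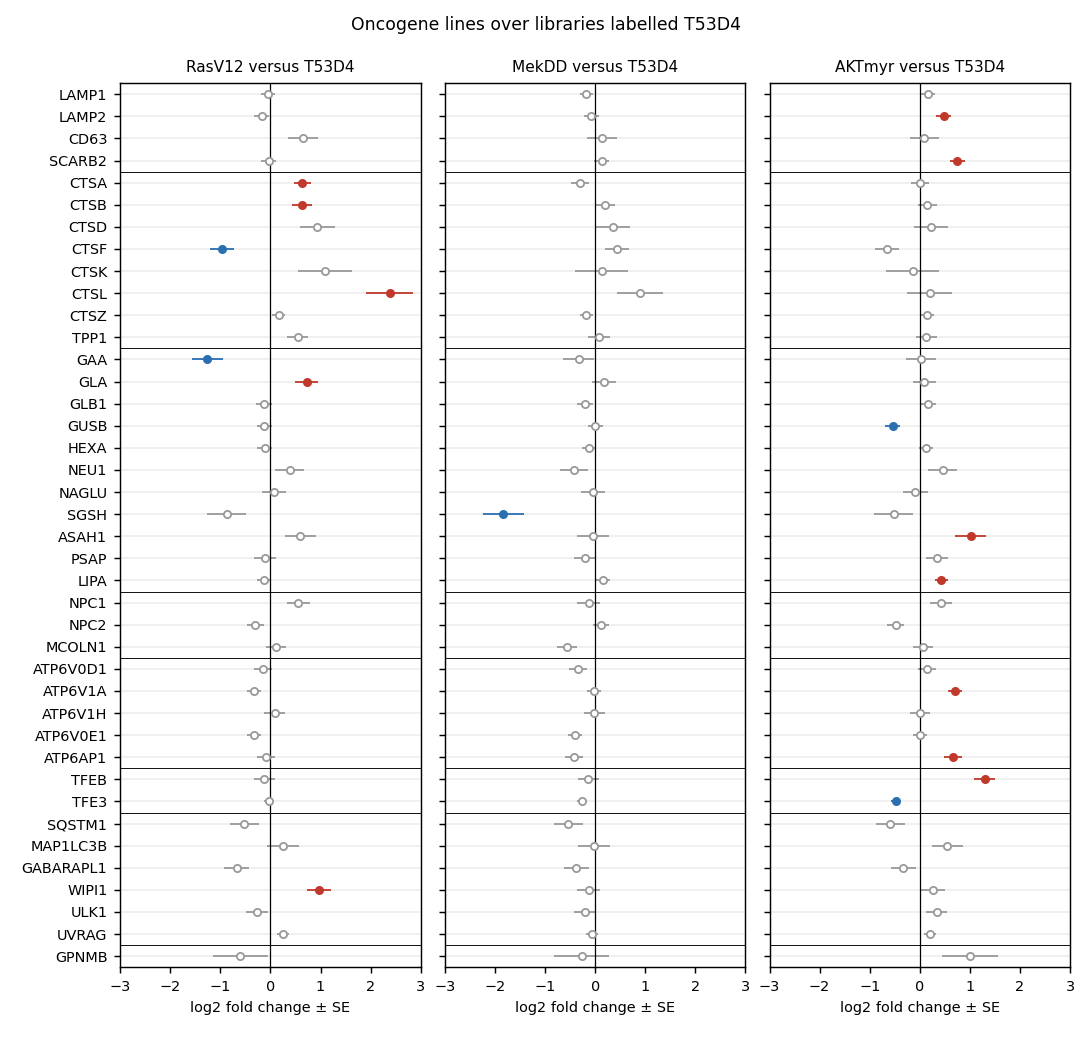
Log2 fold change ± SE of 40 genes in RasV12, MekDD and AKTmyr over T53D4 (n = 3 libraries per line); filled points are genes called by edgeR at adjusted p under 0.05, red higher and blue lower, and open grey points were not called. RasV12 has 5 filled points to the right and 2 to the left, MekDD 1 to the left (SGSH), and AKTmyr 7 to the right and 2 to the left.

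In RasV12 cells the protease genes CTSL, CTSA and CTSB, the glycosidase GLA and the autophagy gene WIPI1 were higher than in T53D4, and the hydrolases GAA and CTSF were lower. Of the 41 genes, 5 were called higher and 2 lower (edgeR quasi-likelihood). Over all genes tested 10.8% were called higher and 13.6% lower. The counts depended on single libraries: 2 members were higher without RasV12 replicate 3 or T53D4 replicate 1, 3 without RasV12 replicate 2 or T53D4 replicate 2, and 7 were lower without RasV12 replicate 3. In these 4 fits, in the order named, 2862, 2778, 2581 and 2534 of all genes were called, against 3313 with every library. The 41 genes were split by sign, 19 positive and 22 negative, with a median log2 fold change of -0.03 against 0.01 over all genes. The 8 proteases had a median of 0.63, and 3 of them were called higher and 1 lower.

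CTSL (chromosome 9, 87726109 to 87731469, plus strand, hg38), a cysteine protease of the lysosome that some cells also secrete, had 328, 444 and 974 CPM in RasV12 against 88.4, 113 and 134 CPM in T53D4. The lowest RasV12 library was above the highest library of every other line, whose maximum was 288 CPM in MekDD. The log2 fold change was 2.38 (SE 0.47, edgeR adjusted p = 0.00218). CTSA, which is both a carboxypeptidase and the protector of beta-galactosidase and neuraminidase, had 239, 342 and 350 CPM in RasV12 against 159, 234 and 205 CPM in T53D4 (log2 0.64, SE 0.17, edgeR adjusted p = 0.0159). CTSB, another cysteine protease, had 1184, 1159 and 1599 CPM in RasV12 against 688, 861 and 995 CPM in T53D4 (log2 0.63, SE 0.19, edgeR adjusted p = 0.028). CTSF, a cysteine protease as well, went the other way, with 35, 32 and 41.1 CPM in RasV12 against 82.6, 67.9 and 61.2 CPM in T53D4 (log2 -0.97, SE 0.24, edgeR adjusted p = 0.00905). CTSD had 839, 1547 and 1906 CPM in RasV12 against 515, 915 and 809 CPM in T53D4, overlapping and not called by edgeR (log2 0.94, SE 0.34, edgeR adjusted p = 0.0615). DESeq2 called CTSD higher (log2 0.94, adjusted p = 0.0273). CTSK, a collagen-degrading protease, had a similar spread (157, 286 and 324 CPM in RasV12 against 47.9, 164 and 147 CPM in T53D4, edgeR adjusted p = 0.16).

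A pair of glycan-degrading enzymes moved in opposite directions. GAA, the acid alpha-glucosidase that breaks down glycogen, had 27.6, 18.8 and 26.3 CPM in RasV12 against 70.1, 51.7 and 51.7 CPM in T53D4 (log2 -1.26, SE 0.31, edgeR adjusted p = 0.00965). GLA, alpha-galactosidase A, had 28.0, 31.7 and 38.3 CPM in RasV12 against 20.9, 18.8 and 19.7 CPM in T53D4 (log2 0.72, SE 0.23, edgeR adjusted p = 0.0375). Among the autophagy genes, WIPI1, which binds the phosphoinositide of forming autophagosomes, had 43.0, 62.2 and 42.6 CPM in RasV12 against 25.0, 29.9 and 20.2 CPM in T53D4 (log2 0.97, SE 0.24, edgeR adjusted p = 0.00797). SQSTM1 was not called (log2 -0.52, SE 0.29, edgeR adjusted p = 0.221). Neither were TFEB (log2 -0.13, SE 0.21, edgeR adjusted p = 0.722), TFE3 (log2 -0.03, SE 0.09, edgeR adjusted p = 0.832), LAMP1 (log2 -0.05, SE 0.13, edgeR adjusted p = 0.826) and GPNMB (log2 -0.60, SE 0.55, edgeR adjusted p = 0.486).

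**Figure D3:**
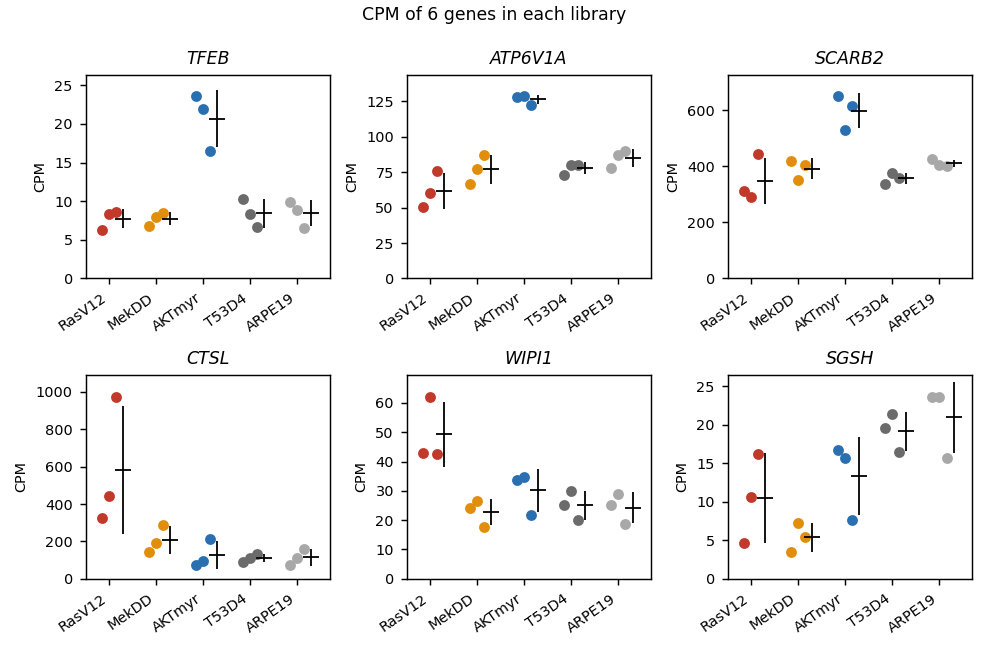
CPM of TFEB, ATP6V1A, SCARB2, CTSL, WIPI1 and SGSH in each library (points, replicates 1, 2 and 3 from left to right) with the mean ± SD of 3 libraries (bar) for RasV12, MekDD, AKTmyr, T53D4 and ARPE19. The 3 AKTmyr points of TFEB lie at 16.5 to 23.6 CPM and the other 12 at 6.31 to 10.3 CPM, and the 3 RasV12 points of CTSL lie at 328 CPM or more and the other 12 at 288 CPM or less.

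The RasV12 calls of CTSL, WIPI1, GAA and CTSF held with every library left out in turn. CTSA was lost without RasV12 replicate 2 or 3 or T53D4 replicate 1 (log2 0.51 to 0.56), CTSB without RasV12 replicate 3 or T53D4 replicate 1 or 2 (log2 0.47 to 0.64), and GLA without RasV12 replicate 2 or 3 or any T53D4 library (log2 0.59 to 0.77). With ARPE19 in place of T53D4 all 7 calls held, and 8 members were higher and 6 lower, where 14.4% of all genes were higher and 16.2% lower. CTSD, NPC1 and UVRAG joined the higher ones against ARPE19, and LAMP2, ATP6V1A, ATP6V0E1 and GABARAPL1 the lower ones. With the replicate block and T53D4, 10 were higher and 7 lower, where 16.6% and 19.2% of all genes were called. CD63, CTSD, CTSK, TPP1 and NPC1 joined the higher ones there, and NPC2, ATP6V1A, ATP6V0E1, SQSTM1 and GABARAPL1 the lower ones. CTSA exons share 1238 bases with genes on the other strand, among them PLTP, which had 36.8 CPM in RasV12 and 20.7 CPM in T53D4, and WIPI1 exons share 829 bases with ARSG (12.5 CPM in RasV12 and 12.3 CPM in T53D4). Whether strand was used in counting is not given in the sources used here. CTSA lies on chromosome 20, whose 352 tested genes had a median log2 fold change of 0.23 in RasV12 over T53D4, and the part of this in the CTSA value was not tested.

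The pathway lists were counted in RasV12 against T53D4 too, where 10.8% of all genes tested were higher and 13.6% lower. Of the other hydrolases 26.5% were called in either direction, of the other membrane proteins 20%, and of the other autophagy genes 25.7%. Of 34 other hydrolases 5 were higher and 4 lower, with CTSH, an aminopeptidase of the cathepsin family, at 96.9 ± 20.6 CPM in RasV12 and 384 ± 78.0 CPM in T53D4 (log2 -1.99, edgeR adjusted p = 1.4e-05). CTSS, an immune-cell cathepsin, had 9.55 ± 13 CPM in RasV12 and 0.843 ± 0.615 CPM in T53D4 (log2 3.47, edgeR adjusted p = 0.00967), a mean smaller than its SD. CPVL was higher in RasV12 (log2 1.30, edgeR adjusted p = 0.0403). Of 20 other lysosomal membrane proteins 3 were higher and 1 lower. LAPTM5, found mainly in blood cells, had 4.68 ± 3.21 CPM in RasV12 and 0.0787 ± 0.0864 CPM in T53D4, the glycoprotein CD68 had 314 ± 30.3 CPM in RasV12 and 142 ± 51.5 CPM in T53D4, and LITAF had 59.3 ± 2.75 CPM in RasV12 and 153 ± 22.4 CPM in T53D4. The 5 macrophage markers in the table, of 6 listed, summed to 12.2 to 21.5 CPM in RasV12 and 3.52 to 8.08 CPM in T53D4. CSF1R carried that sum (15.1 CPM in RasV12 and 4.28 CPM in T53D4), while PTPRC, CD14 and LYZ were at or below 0.0666 CPM in both lines on average. ITGAM went the other way, with 0.015 CPM in RasV12 and 0.838 CPM in T53D4. In bulk RNA, more cells of one kind and more RNA per cell cannot be told apart.

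Of 9 genes for sorting hydrolases to lysosomes, 0 were higher and 3 lower in RasV12 than in T53D4. They were the sorting receptor SORT1, at 154 ± 55.4 CPM in RasV12 and 351 ± 52.6 CPM in T53D4 (log2 -1.18, edgeR adjusted p = 9.0e-04), GNPTAB, which makes the mannose 6-phosphate tag (log2 -0.89, edgeR adjusted p = 0.0084), and the coat adaptor GGA2 (log2 -0.81, edgeR adjusted p = 0.00198). MITF was lower too, at 27.5 ± 3.26 CPM in RasV12 and 92.5 ± 22.9 CPM in T53D4 (log2 -1.75, edgeR adjusted p = 2.5e-04). Of 35 other autophagy genes, 5 were higher and 4 lower, with the receptor OPTN at log2 -1.43, ATG16L1, part of the complex that lipidates LC3, at log2 0.96, and VMP1 at log2 0.85. Of 12 other V-ATPase subunits 2 were higher, ATP6AP2 (log2 0.71) and ATP6V0B (log2 0.55), and 0 lower. Of 21 mTORC1 and nutrient-sensing genes 0 were higher and 1 lower, LAMTOR1 (log2 -0.42).

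Few genes differed between MekDD and T53D4, among the 41 as among all genes tested. By edgeR 0 of the 41 were higher and 1 lower, where 2.27% of all genes tested were higher and 2.83% lower. At an unadjusted p under 0.05, 5 of the 41 and 2378 of all genes differed, and DESeq2 called 0 members higher and 2 lower, where it called 3.35% of all genes higher and 4.29% lower. The 1 gene was SGSH, which removes sulfate from heparan sulfate (chromosome 17, 80206716 to 80220923, minus strand, hg38), with 3.52, 7.2 and 5.41 CPM in MekDD against 19.5, 21.4 and 16.5 CPM in T53D4. Every MekDD library was below every T53D4 library (log2 -1.83, SE 0.41, edgeR adjusted p = 0.0171). The call was lost without MekDD replicate 1 or 3 or T53D4 replicate 2 (log2 -1.83 to -1.60), and it held against ARPE19, where SGSH had 23.6, 23.7 and 15.7 CPM. SLC26A11, which shares exon bases with SGSH on the other strand, had 0.860 CPM in MekDD and 4.03 CPM in T53D4.

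Other members in MekDD were not called. TFEB (log2 -0.13, SE 0.21), TFE3 (log2 -0.26, SE 0.09), SQSTM1 (log2 -0.54, SE 0.29), LAMP1 (log2 -0.17, SE 0.13), CTSD (log2 0.36, SE 0.34) and GPNMB (log2 -0.26, SE 0.55) had edgeR adjusted p from 0.131 to 0.886. TFE3, at 135, 131 and 128 CPM in MekDD against 166, 151 and 157 CPM in T53D4, did not overlap and was the second gene that DESeq2 called. With the replicate block 1 member was higher, CTSL (log2 0.84), and 5 were lower, SGSH, MCOLN1, ATP6V0D1, ATP6V0E1 and TFE3, where 5.49% and 6.2% of all genes were called. With ARPE19 in place of T53D4, 0 were higher and 3 lower, namely SGSH, ATP6V0E1 and TFE3, where 4.61% of all genes were higher and 6.27% lower. In the lists, CTSH (log2 -0.90) and LITAF (log2 -0.78) were lower and ATG16L1 (log2 0.52) higher in MekDD than in T53D4, and the remaining genes of those lists were not called. Blocked by replicate number, 3 of 9 sorting genes, 4 of 34 other hydrolases and 3 of 21 mTORC1 and nutrient-sensing genes were lower in MekDD, with 0 higher in each list, and 2 of 20 other membrane proteins were higher and 1 lower.

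T53D4 and ARPE19 did not differ in any of the 41 genes by edgeR (0 higher and 0 lower), where 0.0368% of all genes were higher and 0.118% lower. At an unadjusted p under 0.05, 1 of the 41 and 1456 of all genes differed, and DESeq2 called 0 members, where it called 0.527% of all genes higher and 0.76% lower. That gene was GUSB, at 169, 147 and 137 CPM in T53D4 against 119, 109 and 101 CPM in ARPE19, with no overlap (log2 0.46, SE 0.15, edgeR adjusted p = 0.298). With the replicate block it was called higher (edgeR adjusted p = 0.0459), as the 1 member among 0.743% of genes higher and 0.963% lower. TFEB (log2 0.00, SE 0.21), TFE3 (log2 -0.06, SE 0.09), SQSTM1 (log2 -0.01, SE 0.29), LAMP1 (log2 -0.12, SE 0.13), CTSD (log2 0.12, SE 0.34) and GPNMB (log2 0.28, SE 0.55) all overlapped. With the spread of GPNMB and CTSD, differences of these sizes were not detectable with 3 libraries per line.

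The oncogene lines were next compared with each other, which tests the differences between these lines directly. They also differed in cyclin D1 and CDK4R24C construct reads. RasV12 had 2350 and 2380 CPM, AKTmyr 858 and 1006 CPM, and MekDD 270 and 142 CPM. The part of these constructs in the differences, here and against T53D4 or ARPE19, was not tested. RasV12 and AKTmyr differed in 15 of the 41 genes, 6 higher and 9 lower in RasV12, where 19.6% of all genes tested were higher and 20.7% lower (edgeR). CTSL was higher in RasV12 by log2 2.18 (SE 0.47, edgeR adjusted p = 0.00236), with 328, 444 and 974 CPM in RasV12 against 75.1, 96.3 and 215 CPM in AKTmyr. WIPI1 (log2 0.71, SE 0.23), CTSA (log2 0.64, SE 0.17), GLA (log2 0.63, SE 0.23), TFE3 (log2 0.44, SE 0.09) and GUSB (log2 0.42, SE 0.15) were the other higher ones. GPNMB was lower, with 171, 424 and 443 CPM in RasV12 against 817, 1051 and 1291 CPM in AKTmyr (log2 -1.61, SE 0.56, edgeR adjusted p = 0.0352). TFEB was lower by log2 -1.42 (SE 0.21, edgeR adjusted p = 1.7e-04), and ATP6V1A, with 50.3, 60.1 and 75.5 CPM in RasV12 against 128, 128 and 122 CPM in AKTmyr, by log2 -1.03 (SE 0.14, edgeR adjusted p = 9.5e-05). GAA (log2 -1.28, SE 0.31), SCARB2 (log2 -0.78, SE 0.15), ATP6AP1 (log2 -0.74, SE 0.18), LAMP2 (log2 -0.66, SE 0.15), ULK1, the kinase that starts autophagy (log2 -0.61, SE 0.22), and LIPA (log2 -0.56, SE 0.14) were lower as well. LAMP1, CTSD and SQSTM1 were not called (log2 -0.22, 0.72 and 0.07, with SE 0.13, 0.34 and 0.29).

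In this pair the groups of GLA overlapped. GLA was lost without RasV12 replicate 2 or 3 or AKTmyr replicate 1 or 2 (log2 0.49 to 0.65), GUSB without any RasV12 library or AKTmyr replicate 2 or 3 (log2 0.26 to 0.46), and WIPI1 without RasV12 replicate 2 or AKTmyr replicate 3 (log2 0.51 and 0.52). ULK1 was lost without RasV12 replicate 1 or 2 or AKTmyr replicate 1 or 2 (log2 -0.59 to -0.48), and GPNMB without RasV12 replicate 1 or 2 or AKTmyr replicate 2 or 3 (log2 -1.78 to -1.27). Among the lists, 5 of 34 other hydrolases were higher and 12 lower in RasV12 than in AKTmyr, led by HYAL1 at 5.63 ± 0.977 CPM in RasV12 and 59.4 ± 24.8 CPM in AKTmyr (log2 -3.40, edgeR adjusted p = 2.6e-06). Of 20 other membrane proteins 3 were higher and 7 lower, and of 35 other autophagy genes 5 were higher and 7 lower. Among all genes tested, 19.6% were higher and 20.7% lower in this pair.

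MekDD and AKTmyr differed in 13 of the 41 genes, 3 higher and 10 lower in MekDD, where 12.7% of all genes tested were higher and 13.5% lower (edgeR). CTSF was higher, with 88.5, 84.5 and 113 CPM in MekDD against 57.3, 44.7 and 32.3 CPM in AKTmyr (log2 1.09, SE 0.24, edgeR adjusted p = 0.00512), with NPC2, a soluble cholesterol carrier (log2 0.60, SE 0.17), and GUSB (log2 0.55, SE 0.15). TFEB was lower, with 6.79, 7.96 and 8.41 CPM in MekDD against 23.6, 22.0 and 16.5 CPM in AKTmyr (log2 -1.42, SE 0.21, edgeR adjusted p = 3.5e-04). ATP6AP1 was lower by log2 -1.08 (SE 0.18, edgeR adjusted p = 9.6e-04), with 81.3, 76.9 and 99.2 CPM in MekDD against 208, 175 and 161 CPM in AKTmyr. The other lower genes were SGSH (log2 -1.31, SE 0.40), ASAH1 (log2 -1.06, SE 0.31), the neuraminidase NEU1 (log2 -0.88, SE 0.29), ATP6V1A (log2 -0.71, SE 0.14), the calcium channel MCOLN1 (log2 -0.62, SE 0.21), SCARB2 (log2 -0.61, SE 0.15), LAMP2 (log2 -0.56, SE 0.15) and ATP6V0E1 (log2 -0.41, SE 0.14). TFE3, LAMP1, CTSD, SQSTM1 and GPNMB were not called (log2 0.22, -0.34, 0.14, 0.05 and -1.27). Of 34 other hydrolases 2 were higher and 12 lower in MekDD, among them SMPD1, the acid sphingomyelinase, at 44.2 ± 3.52 CPM in MekDD and 92.2 ± 16.1 CPM in AKTmyr (log2 -1.06, edgeR adjusted p = 1.8e-04). With the replicate block 5 members were higher and 18 lower, where 20.3% and 20% of all genes were called.

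The MekDD calls against AKTmyr that single libraries decided were those of LAMP2 (lost without MekDD replicate 2 or AKTmyr replicate 1, log2 -0.47 and -0.42), GUSB (MekDD replicate 1 or AKTmyr replicate 3, log2 0.50 and 0.38), NPC2 (MekDD replicate 3 or AKTmyr replicate 1 or 2, log2 0.50 to 0.56) and NEU1 (MekDD replicate 1 or 2 or AKTmyr replicate 2 or 3, log2 -0.95 to -0.65). SGSH was lost without MekDD replicate 1 or 3 or AKTmyr replicate 1 or 2 (log2 -1.31 to -1.08), and ASAH1 without MekDD replicate 1 or 2 or AKTmyr replicate 2 (log2 -1.07 to -0.85). MCOLN1 was lost without any MekDD library or AKTmyr replicate 2 or 3 (log2 -0.72 to -0.48), and so was ATP6V0E1 (log2 -0.47 to -0.33). TFEB, ATP6V1A, ATP6AP1, SCARB2 and CTSF were called with each library left out in turn.

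RasV12 and MekDD, which share the RAS to MEK branch of signalling, differed in 5 of the 41 genes, 4 higher and 1 lower in RasV12, where 7.17% of all genes tested were higher and 8.33% lower (edgeR). CTSL (log2 1.48, SE 0.46, edgeR adjusted p = 0.0418) and WIPI1 (log2 1.11, SE 0.24, edgeR adjusted p = 0.00589) were higher, as were CTSA (log2 0.94, SE 0.18, edgeR adjusted p = 0.00237) and MCOLN1 (log2 0.67, SE 0.21, edgeR adjusted p = 0.0418). WIPI1 had 43.0, 62.2 and 42.6 CPM in RasV12 against 24.1, 26.6 and 17.8 CPM in MekDD. CTSF was lower, with 35, 32 and 41.1 CPM in RasV12 against 88.5, 84.5 and 113 CPM in MekDD (log2 -1.41, SE 0.24, edgeR adjusted p = 0.0014). The groups of MCOLN1 overlapped, and it was lost without RasV12 replicate 2 or 3 or any MekDD library (log2 0.49 to 0.76). CTSL was lost without RasV12 replicate 2 or 3 or MekDD replicate 1 or 2 (log2 0.89 to 1.65). TFEB, TFE3, SQSTM1, LAMP1, CTSD and GPNMB were not called (log2 0.01, 0.23, 0.02, 0.12, 0.57 and -0.33). With the replicate block 12 members were higher and 4 lower, where 12.5% and 13.9% of all genes were called. PLTP, the neighbour of CTSA on the other strand, had 36.8 CPM in RasV12 and 3.25 CPM in MekDD. The genes of chromosome 20, where CTSA lies, had a median log2 fold change of 0.30 in RasV12 over MekDD and 0.23 over AKTmyr. The part of this in the CTSA values was not tested.

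**Figure D4:**
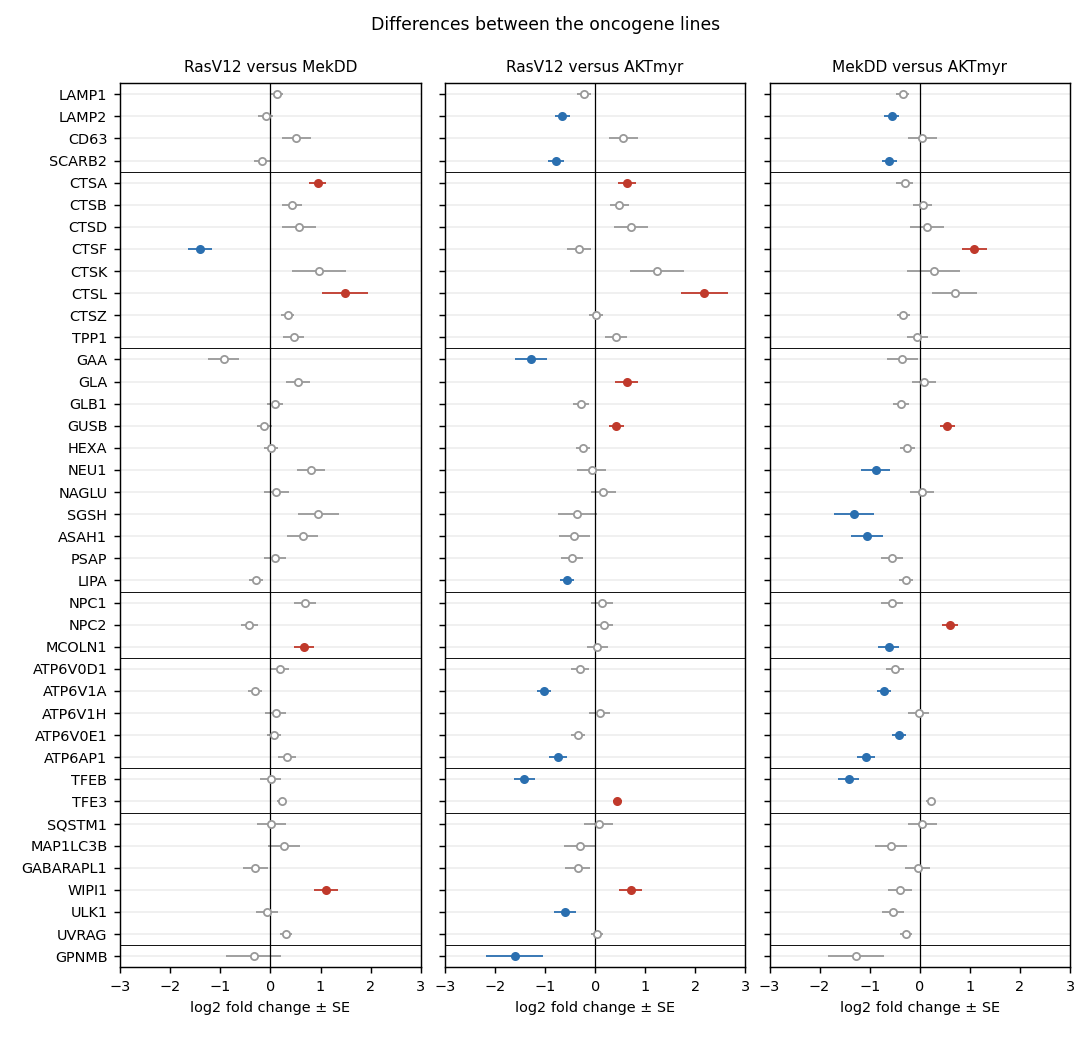
Log2 fold change ± SE of 40 genes for RasV12 over MekDD, RasV12 over AKTmyr and MekDD over AKTmyr (n = 3 libraries per line), with filled points called by edgeR at adjusted p under 0.05, red higher and blue lower in the line named first. TFEB lies at -1.42 in both comparisons with AKTmyr and at 0.01 between RasV12 and MekDD.

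Sequences near the start sites of these genes were examined for the E-box that MiT factors bind. RefSeq promoters (250 bases before to 50 after the first listed start, build GRCh38.p14) were matched by symbol for 29 of the 41 genes. The core CACGTG, which reads the same on both strands, was in 10 of the 29 (34.5%), against 9.86% of 10900 promoters of tested genes and 7.43% of all 27305 promoters. TCACGTGA, which contains the core, was in 6 of the 29 (20.7%), against 1.83% and 1.04%. The M-box (TCATGTGA or its reverse complement TCACATGA) was in CD63, TPP1 and GPNMB. Of the 4 genes called higher in AKTmyr over T53D4 that had a matched promoter, 0 held CACGTG. LAMP2, ASAH1 and ATP6V1A, also called higher, had no matched promoter. Of the 2 called lower, GUSB and TFE3, 0 held CACGTG. Of the 4 called higher in RasV12 over T53D4 that had a matched promoter, CTSA held it, and both called lower there, CTSF and GAA, held it. The stretches below show the first core before the start in these 3 genes, and then in LAMP1, MCOLN1 and ATP6V0D1, which were not called in any comparison with T53D4. They read 5′ to 3′ on the gene's strand with every CACGTG in capitals, and were cut to 30 bases where a longer stretch met an annotated exon. LAMP1 and MCOLN1 show 2 cores in the window.
CTSA, chr20:45891281-45891310, plus strand: gaggaagactgtCACGTGgcgccggagttc
CTSF, chr11:66568712-66568741, minus strand: acatataacaagCACGTGatagaggtcagt
GAA, chr17:80101475-80101540, plus strand: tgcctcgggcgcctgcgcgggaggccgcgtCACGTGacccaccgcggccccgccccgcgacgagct
LAMP1, chr13:113297017-113297082, plus strand: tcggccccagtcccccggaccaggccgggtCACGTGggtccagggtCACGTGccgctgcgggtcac
MCOLN1, chr19:7522553-7522618, plus strand: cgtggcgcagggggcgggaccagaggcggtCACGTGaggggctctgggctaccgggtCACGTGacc
ATP6V0D1, chr16:67481199-67481228, minus strand: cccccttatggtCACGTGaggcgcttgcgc
The CTSA and CTSF stretches lie inside the gene's span in the annotation the authors deposited and overlap an exon annotated there, upstream of the first start that RefSeq lists. The other 4 stretches lie before the gene's span and overlap no annotated exon. These are matches of letters and were not tested for binding.

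The replicate number carried a pattern of its own in these genes. In 14 of the 41, replicate 1 was the lowest library in all 5 lines, against 940 of the 13599 genes tested, and in 1 of the 41, GUSB, it was the highest in all 5, against 1024 of the tested genes. The 14 were CD63, CTSD, CTSK, CTSL, NEU1, NAGLU, ASAH1, NPC1, NPC2, MCOLN1, ATP6V0D1, ATP6V1H, SQSTM1 and GPNMB. CTSK had 157 CPM in replicate 1 of RasV12, 56.6 CPM in MekDD, 64.9 CPM in AKTmyr, 47.9 CPM in T53D4 and 55.2 CPM in ARPE19, and 119 to 324 CPM in the 10 other libraries. GPNMB had 817 CPM in replicate 1 of AKTmyr and 146 to 258 CPM in that of the other 4 lines. What replicate 1 libraries share is not stated in the labels, and the part of culture state or preparation in the pattern was not tested. From replicates 2 and 3 alone, CTSK and CTSD were higher in RasV12 than in T53D4 (log2 0.99 and 1.02, edgeR adjusted p = 0.00139 and 0.00602), and 10 members were higher and 2 lower in that comparison, where 10.7% of all genes were higher and 12.1% lower.

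**Figure D5:**
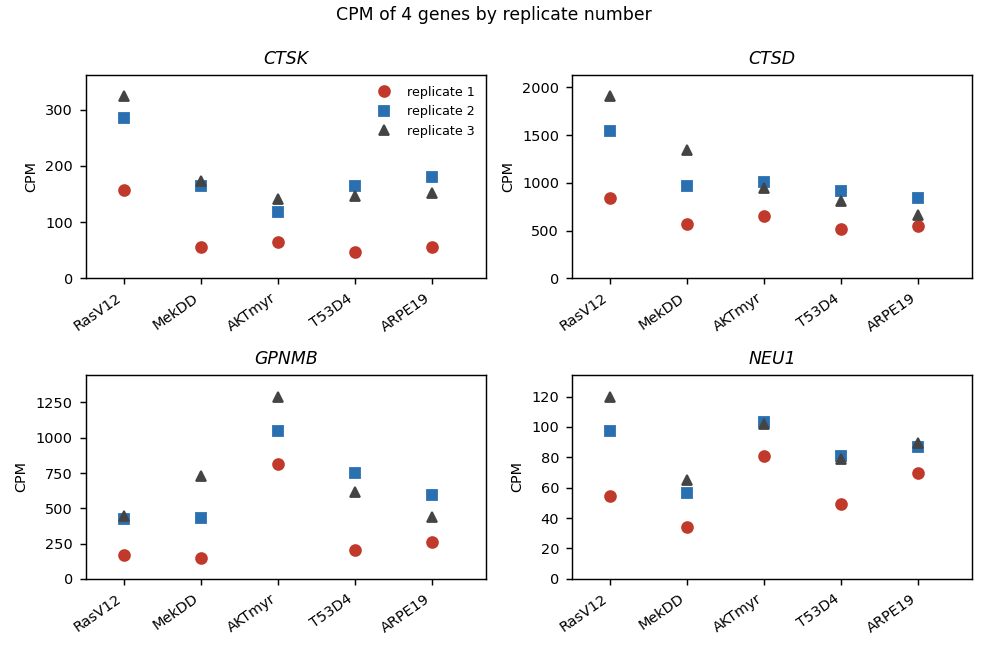
CPM of CTSK, CTSD, GPNMB and NEU1 in RasV12, MekDD, AKTmyr, T53D4 and ARPE19, marked by replicate number (circle 1, square 2, triangle 3; 1 library each). The circle is the lowest of the 3 marks in every line for all 4 genes, and for CTSK it stays between 47.9 and 64.9 CPM in MekDD, AKTmyr, T53D4 and ARPE19.

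In all, 23 of the 41 genes were called in at least 1 of the 7 comparisons by edgeR, as were 54.4% of all genes tested, and 18 were called in none. In the 6 comparisons where replicate numbers pair the libraries, the fit with the replicate block differed, and 35 of the 41 were called at least once, as were 66.7% of all genes tested. Of the 18, the block called 12, namely LAMP1, CD63, CTSD, CTSK, TPP1, PSAP, NPC1, ATP6V0D1, SQSTM1, MAP1LC3B, GABARAPL1 and UVRAG. The other 6 were CTSZ, a carboxypeptidase, the beta-galactosidase gene GLB1, the beta-hexosaminidase gene HEXA, NAGLU, which degrades heparan sulfate, CLN3 and the pump subunit ATP6V1H. MAP1LC3B and GABARAPL1 belong to the family whose proteins coat autophagosomes. MAP1LC3B had 151, 301 and 130 CPM in AKTmyr against 144, 153 and 100 CPM in T53D4, and GABARAPL1 had 19.0, 30.4 and 36.3 CPM in RasV12 against 39.4, 56.5 and 40.8 CPM in T53D4. GABARAPL1 did not overlap there and was called lower by DESeq2 (log2 -0.67, adjusted p = 0.0409) and by edgeR with the block (adjusted p = 0.0415), but not by edgeR without it (log2 -0.68, adjusted p = 0.0601).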

How the data were processed

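Poly(A) RNA was sequenced as directional paired-end libraries, per the labels. The values used are raw read counts per gene as deposited by the authors. The submitters' processing notes name hg38, featureCounts 1.6.4, HISAT2 2.1.0, fastp 0.20.0, DESeq2 1.28.1, SAMtools 1.9 and deepTools 3.2.0. Their roles and strand settings are not given in the sources used here. Exon lengths and overlaps came from the start and end coordinates (hg38) of the protein-coding annotation the authors deposited.

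Of 15517 rows, 7 construct rows were left out of tests and library sizes, and the smallest row total was 10 reads. edgeR 4.0.16 (R 4.3.3) was run on all 15 libraries with TMM factors, filterByExpr (minimum count 10) and line as the sole factor. Its quasi-likelihood p-values were Benjamini-Hochberg adjusted over 13599 genes in each of 7 comparisons, with calls under 0.05. CPM were computed here with the same factors, and the SE is the fold change over the root of the F statistic. The code was tested on simulated data. The comparisons with T53D4 share its libraries. Alternatives were DESeq2 1.42.0, RLE factors, no filter, 2 lines only, construct rows kept, a replicate block, leaving out each library, and, added after seeing the data, ARPE19 in place of T53D4 and replicates 2 and 3 alone.

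Replicate numbers come from the sample labels. Same-numbered libraries deviated together from their line means (each correlation over genes above 0.1) in 6 comparisons, from 0.141 to 0.644, but not in RasV12 against AKTmyr, where replicate 3 gave 0.027. The 41 genes and the pathway and marker lists were chosen with earlier results of these data known. Each called gene is named, with TFEB, TFE3, SQSTM1, LAMP1, CTSD and GPNMB always, and at most 3 called genes of a pathway list per comparison. Counts carry no molecular identifiers.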

Additional observations from a re-analysis of the deposited data

How the results depend on the processing

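Of 50 calls on the 41 genes, 22 held under every alternative and 0 changed sign. DESeq2, RLE factors, no filter, the construct rows and the replicate block lost 0 calls, the fit of 2 lines lost 14, replicates 2 and 3 alone 13, ARPE19 in place of T53D4 5, and 24 were lost when some library was left out. The cause was not tested, except that the last 4 use fewer or other libraries.

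With the replicate block, members higher and lower were 10 and 7 (RasV12 over T53D4), 1 and 5 (MekDD over T53D4), 5 lower (AKTmyr over T53D4), 1 higher (T53D4 over ARPE19), 12 and 4 (RasV12 over MekDD), 11 higher (RasV12 over AKTmyr) and 5 and 18 (MekDD over AKTmyr). Members higher in AKTmyr over T53D4 were 10 and lower in RasV12 over AKTmyr 12 with the block. In RasV12 against AKTmyr the numbers do not pair the libraries by the rule used. All genes called with the block were 1589 (MekDD) and 4738 (AKTmyr) over T53D4, 232 (T53D4 over ARPE19), 3588 (RasV12 over MekDD) and 5481 (MekDD over AKTmyr), against 694, 2738, 21, 2108 and 3560 without it. RasV12 had 4866 genes called over T53D4 and 7163 over AKTmyr with the block, against 3313 and 5490 without it.

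By DESeq2, 2 members were lower in MekDD and 4 in AKTmyr over T53D4, and 8 were higher and 2 lower in RasV12 over MekDD. DESeq2 called 1116 genes in MekDD over T53D4, 3397 in AKTmyr over T53D4, 2662 in RasV12 over MekDD and 188 in T53D4 over ARPE19. With 2 lines only, 1 member was lower in AKTmyr over T53D4, 2 lower in RasV12 over MekDD and 1 higher in MekDD over AKTmyr. The genes called were 1449 in AKTmyr over T53D4, 2 in T53D4 over ARPE19, 1964 in RasV12 over MekDD and 2349 in MekDD over AKTmyr. Against ARPE19, RasV12 had 8 higher and 6 lower (4169 genes called), MekDD 3 lower (1479 genes called) and AKTmyr 1 lower (2290 genes called). From replicates 2 and 3 alone, RasV12 had 10 higher (3082 genes called) and AKTmyr 3 higher (1730 genes called) over T53D4. RasV12 had 8 higher and 2 lower over MekDD (2297 genes called), and T53D4 over ARPE19 had 7 genes called.

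Leaving out 1 library gave 2 to 7 higher and 2 to 7 lower (RasV12 over T53D4, 2534 to 2862 genes), 0 to 1 lower (MekDD over T53D4, 360 to 600 genes), 3 to 6 higher and 1 to 3 lower (AKTmyr over T53D4, 1611 to 2669 genes), 1 to 6 genes (T53D4 over ARPE19), 2 to 8 higher and 1 to 2 lower (RasV12 over MekDD, 1352 to 1815 genes), 3 to 6 higher (RasV12 over AKTmyr, 4319 to 5677 genes) and 5 to 11 lower (MekDD over AKTmyr, 2271 to 3698 genes). Depth limits CLN3 (3 to 14 reads per library), and replicate spread limits GPNMB, CTSK and CTSD in the fit without the replicate block.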
